A study of Mus musculus with 6 samples.

Results

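The miR-130 and miR-301 seed family consists here of miR-130a, miR-130b, miR-301a and miR-301b. These are 4 of the 517 microRNA assays read in whole mouse aortas, taken by assay name without the star strands. The family was picked with the knockout values of its members already known, so the knockout against wild-type values below are descriptions without p-values. Where members are counted as called or not called in a fit of all assays, nothing is read from the counts. The Dicer_KO group held aortas of 3 male mice of the genotype LysM-Cre/Dicerflox/flox/Apoe-/-, in which Cre recombinase made from the lysozyme M locus acts on 2 floxed copies of Dicer. The Dicer_WT group held aortas of 3 male littermates, LysM-Cre/Dicerwt/wt/Apoe-/-, which carry the same Cre and wild-type Dicer. Both groups lack Apoe, which makes mice prone to atherosclerosis, and both ate a diet with 21% crude fat for 12 weeks from an age of 6 to 8 weeks. The lysozyme M gene is switched on in macrophages, monocytes and neutrophils, while the RNA came from all cells of the vessel, and no Dicer transcript was read.

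A microRNA pairs with messenger RNAs mainly through its seed, bases 2 to 8 from its 5′ end, and lowers their stability and translation. Dicer cuts the hairpin precursor into a duplex, of which 1 strand, the guide, is usually retained and the other, the star strand, is usually lost. The miR-130 and miR-301 microRNAs share a seed and therefore overlap in predicted targets, among them the messenger RNA of the nuclear receptor PPARγ. The family is known for raising vascular cell growth and matrix stiffening in pulmonary hypertension, and in human endothelial cells miR-130a lowers the antiangiogenic homeobox proteins GAX and HOXA5. In human cancer cells miR-301a raises NF-κB activity by repressing the inhibitor NKRF.

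The sequences are shown because the 4 members share their first bases and differ further along, in the same pairs into which their values fall. RefSeq (GRCm38.p6) listed the mature strand of 3 of the 4 members by name, with the seed in capitals.
miR-130a: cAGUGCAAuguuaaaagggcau
miR-130b: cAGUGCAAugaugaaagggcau
miR-301a: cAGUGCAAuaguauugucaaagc
For miR-301b the whole hairpin is given beside that of miR-130b, with the same 7 letters in capitals, since these hairpins form 1 cluster in the genome.
miR-130b hairpin: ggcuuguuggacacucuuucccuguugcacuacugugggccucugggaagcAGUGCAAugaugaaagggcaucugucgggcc
miR-301b hairpin: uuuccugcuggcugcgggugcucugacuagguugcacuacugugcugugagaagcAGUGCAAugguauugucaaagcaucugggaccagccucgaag
The cluster lies on the minus strand of mouse chromosome 16, with the miR-130b hairpin at chr16:17124061-17124142 and the miR-301b hairpin at chr16:17124400-17124496, 257 bases apart. Both overlap the gene 2610318N02Rik in the annotation. The miR-130a hairpin, at chr2:84741115-84741178 on the minus strand, overlaps no annotated gene. The miR-301a hairpin, at chr11:87113004-87113089 on the plus strand, overlaps Ska2, which encodes a kinetochore protein.

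Counted from 1 at the 5′ end of the first microRNA named, miR-130a and miR-130b were identical at 20 of 22 bases, with the substitutions U11A and A13G. The mature miR-301a matched a stretch of the miR-301b hairpin at 22 of 23 bases, with the single substitution A10G. Between the pairs, miR-130a and miR-301a were identical at 12 of 22 bases and miR-130b and miR-301a at 11 of 22. Sequence thus groups miR-130a with miR-130b and miR-301a with miR-301b, whereas the genome groups miR-130b with miR-301b. A probe assay may not fully separate strands that differ at 1 base, and how far the miR-301a and miR-301b assays read each other's product was not tested.

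Levels were read by TaqMan PCR as a threshold cycle (Ct), in which a smaller number means more RNA and each cycle is about a doubling. All 4 members lay on the same array card and were detected, below Ct 35, in all 6 aortas. miR-130a had Ct 20.9, 21.7 and 21.7 in Dicer_KO aortas, against 20.5, 21.0 and 21.2 in Dicer_WT aortas. miR-301b had Ct 21.96, 22.6 and 22.8 in Dicer_KO aortas, against 20.7, 21.1 and 21.3 in Dicer_WT aortas. The miR-130a wells of the groups overlapped, while every Dicer_KO well of miR-301b lay later than every Dicer_WT well.

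miR-301a had Ct 22.3, 23.0 and 23.2 in Dicer_KO aortas, against 20.9, 21.6 and 21.7 in Dicer_WT aortas. miR-130b had Ct 25.1, 25.6 and 26.0 in Dicer_KO aortas, against 24.7, 25.0 and 25.3 in Dicer_WT aortas. By mean Ct the order from earliest was miR-130a, miR-301b, miR-301a and miR-130b in both groups, an order of wells only, since assays differ in efficiency. In this order the mean Ct values were 21.5 ± 0.441, 22.5 ± 0.446, 22.8 ± 0.459 and 25.6 ± 0.455 in Dicer_KO aortas (SD, n = 3), where miR-130a stood 1.01 cycles before miR-301b. In Dicer_WT aortas they were 20.9 ± 0.383, 21.0 ± 0.302, 21.4 ± 0.404 and 25.0 ± 0.281 (SD, n = 3). There miR-130a and miR-301b stood 0.141 cycles apart, with an SD of 0.0806 for the difference within an aorta. miR-301b and miR-301a stood 0.360 cycles apart, with an SD of 0.126. In each Dicer_WT aorta miR-130a came before miR-301b and miR-301b before miR-301a.

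The comparison of genotypes asked how microRNAs of the atherosclerotic vessel respond to loss of Dicer where lysozyme M is made. On the authors' scale, relative quantities set against reference RNAs and to a Dicer_WT mean of 0 in log2, both miR-301 members were lower in Dicer_KO aortas and both miR-130 members were closer to the Dicer_WT level. miR-301b had relative quantities of 0.541, 0.414 and 0.356 in Dicer_KO aortas, against 1.09, 1.02 and 0.904 in Dicer_WT aortas. The log2 difference was -1.22 ± 0.219 (SE from limma, n = 3 each), a fold of 0.430. Every Dicer_KO aorta was below every Dicer_WT aorta.

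miR-301a, from chromosome 11, gave nearly the same numbers. Its relative quantities were 0.553, 0.425 and 0.355 in Dicer_KO aortas, against 1.19, 0.939 and 0.893 in Dicer_WT aortas. The log2 difference was -1.19 ± 0.240 (SE, n = 3 each), a fold of 0.437, again without overlap. In bulk tissue, fewer cells of a type and less of the microRNA per cell cannot be told apart.

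miR-130a had relative quantities of 0.989, 0.730 and 0.671 in Dicer_KO aortas, against 1.16, 1.00 and 0.863 in Dicer_WT aortas. The groups overlapped, since Dicer_KO replicate 1 lay above Dicer_WT replicate 3, and the log2 difference was -0.35 ± 0.229 (SE, n = 3 each). miR-130b, the cluster partner of miR-301b, had 0.980, 0.802 and 0.621 in Dicer_KO aortas, against 1.05, 1.06 and 0.894 in Dicer_WT aortas. It overlapped in the same way, at -0.35 ± 0.228 (SE, n = 3 each). For all 4 members Dicer_KO replicate 1 was the highest of the Dicer_KO aortas and Dicer_KO replicate 3 the lowest. With Dicer_KO replicate 3 left out the difference of miR-130b was -0.17, and with Dicer_KO replicate 1 left out it was -0.50.

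**Figure D1:**
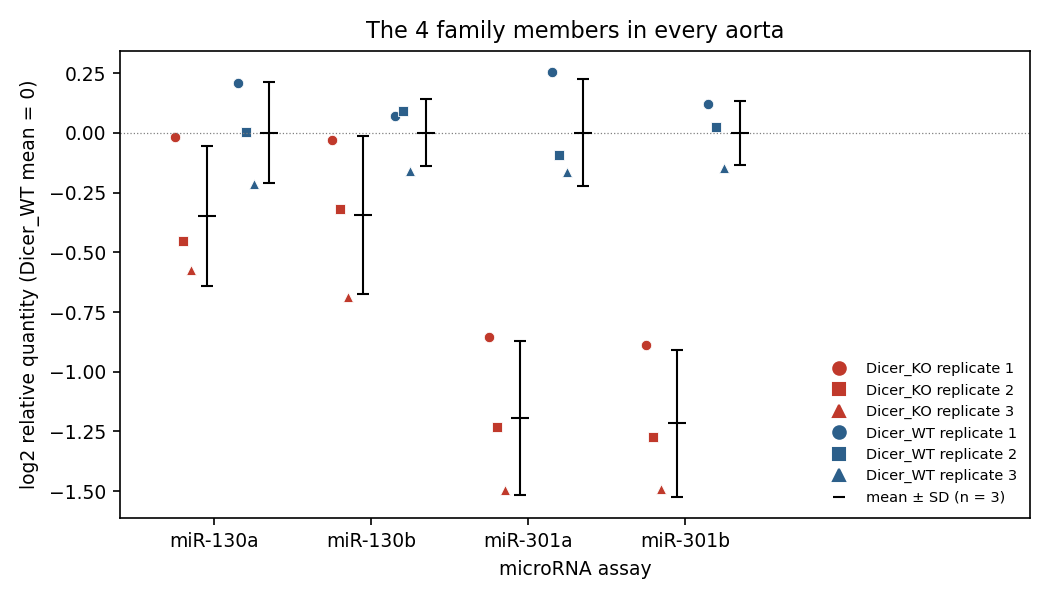
Log2 relative quantity of each member (vertical axis, Dicer_WT mean at 0) in the 3 Dicer_KO aortas (red) and the 3 Dicer_WT aortas (blue), with symbols for replicates and black bars for mean ± SD. The Dicer_KO points of miR-301a and miR-301b lie at -0.85 or lower, clear of the Dicer_WT points, and those of miR-130a and miR-130b overlap them.

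The authors' deposited table gives folds of Dicer_KO over Dicer_WT of 0.436 for miR-301b, 0.441 for miR-301a, 0.791 for miR-130a and 0.798 for miR-130b. These equal the ratio of the arithmetic mean relative quantities, whereas the folds above come from means of log2 values.

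In a limma fit of 377 assays, those with product below Ct 35 in 2 or more aortas of either group, 0 of the 4 members passed an adjusted p of 0.05. Over all assays 7 (1.86%) were called lower and 0 higher, while 101 had an unadjusted p under 0.05. Most of the assays called had no product in any Dicer_KO aorta, so their Dicer_KO wells were set to Ct 35. A fit of the 330 assays detected in all 6 aortas, as the members were, called 20 lower and 2 higher. miR-301a and miR-301b were among those lower. Without Dicer_KO replicate 1, miR-301a and miR-301b were both called lower, among a total of 55 of 377 assays called lower, with 9 called higher. Over 19 alternative settings miR-301b passed in 5, miR-301a in 4, and miR-130a and miR-130b in 0. In the settings in which a member passed, 13 to 55 assays were called lower, against 7. Every Dicer_KO aorta was below every Dicer_WT aorta for 2 of the 4 members, against 123 of the 377 assays (32.6%), and every Dicer_KO aorta was above for 0 of the 4, against 9 assays (2.39%). All 4 log2 differences were below 0, against 295 assays (78.2%). Nothing is read from these counts, as the same contrast led to the choice of the family.

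Differences between members within an aorta use no reference RNA, because all 4 assays share a card. miR-301a came later than miR-130a by 1.34, 1.28 and 1.42 cycles in Dicer_KO aortas, against 0.456, 0.596 and 0.452 cycles in Dicer_WT aortas. The means were 1.35 ± 0.0713 and 0.501 ± 0.082 cycles (SD, n = 3 each). miR-301b came earlier than miR-130b, its cluster partner, at -3.11, -3.02 and -3.17 cycles in Dicer_KO aortas, against -4.02, -3.90 and -3.99 cycles in Dicer_WT aortas. Both gaps moved by nearly the same amount, 0.85 and 0.87 cycles, and in neither case did the groups overlap.

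The gap between miR-301b and miR-301a stayed small in both groups, at -0.34 ± 0.0229 cycles in Dicer_KO aortas and -0.36 ± 0.126 cycles in Dicer_WT aortas (SD, n = 3 each). miR-130b came later than miR-130a by 4.11 ± 0.126 cycles in Dicer_KO aortas and 4.11 ± 0.122 cycles in Dicer_WT aortas. The differences between groups, 0.023 and -0.003 cycles, were below the spread between replicates.

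As read by these assays, the cluster of miR-130b and miR-301b showed no common difference from the other pair. How far the miR-301a and miR-301b assays read each other's product was not tested, so this comparison may not separate those members. In log2 relative quantity, the mean of miR-130b and miR-301b minus the mean of miR-130a and miR-301a was -0.02, 0.05 and -0.05 in Dicer_KO aortas, against -0.14, 0.10 and 0.04 in Dicer_WT aortas. The group difference of -0.01 was smaller than the SDs of 0.0533 and 0.123 in Dicer_KO and Dicer_WT aortas, and its sign depended on single aortas, reaching -0.08 when Dicer_WT replicate 1 was left out and 0.04 when Dicer_WT replicate 2 was.

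Grouped by name and sequence instead, a grouping chosen after the values were seen, the pairs stood apart. The mean of miR-301a and miR-301b minus the mean of miR-130a and miR-130b was -0.85, -0.87 and -0.86 in Dicer_KO aortas, against 0.05, -0.08 and 0.03 in Dicer_WT aortas. The group difference was -0.86, beside SDs of 0.0097 in Dicer_KO and 0.0703 in Dicer_WT aortas (n = 3 each). It ranged from -0.90 to -0.83 when 1 aorta was left out, so Dicer_KO replicate 1, the highest Dicer_KO aorta in each member's own level, did not stand apart in this difference.

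**Figure D2:**
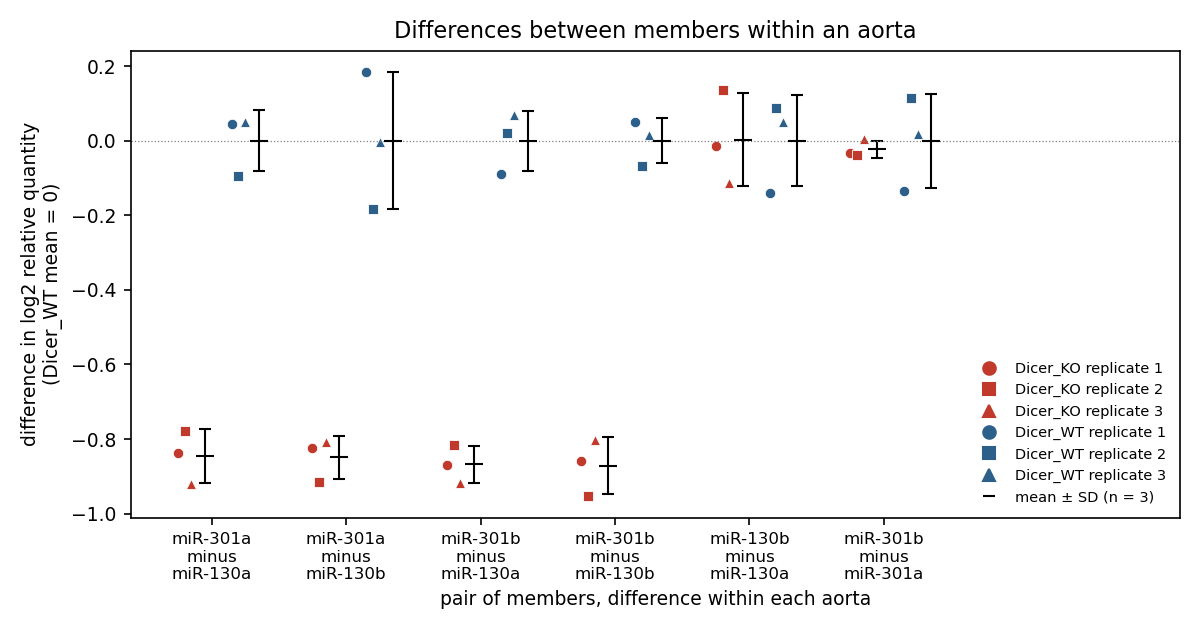
Differences between 2 members within each aorta, in log2 relative quantity with the Dicer_WT mean at 0 (vertical axis), for 6 pairs of members (horizontal axis), with Dicer_KO aortas in red left of Dicer_WT aortas in blue and black bars for mean ± SD. The 4 pairs of a miR-301 with a miR-130 member lie at -0.78 or lower in Dicer_KO aortas, and the 2 pairs of like-named members lie about 0 in both groups.

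The median log2 difference of all 377 assays was -0.42 on the authors' scale. miR-130a and miR-130b lay 0.07 above this median, and miR-301a and miR-301b lay below it by 0.78 and 0.80 (differences minus median of -0.78 and -0.80). In the order of all assays, 40 were lower than miR-301b and 41 lower than miR-301a, against 211 lower than miR-130a and 212 lower than miR-130b. Control RNAs that do not need Dicer differed too: on this card the Ct of U87 was 0.70 cycles and that of Y1 0.78 cycles later in Dicer_KO aortas, and that of U6 0.06 cycles later. Among the reference RNAs of the authors' scale besides U6, snoRNA135 came 0.30 cycles and snoRNA202 0.32 cycles later in Dicer_KO aortas.

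The direction of the miR-130 members followed the scaling. miR-130a turned to 0.02 with mean centring, 0.16 relative to U87 and Y1 and 0.20 after quantile normalization, and miR-130b to 0.02, 0.17 and 0.07. Under the same scalings miR-301a stayed below 0, at -0.83, -0.68 and -0.85, as did miR-301b at -0.85, -0.71 and -0.65. The median of all assays itself moved to -0.13, 0.16 and 0 under these scalings. Relative to U87 and Y1, miR-130a and miR-130b lay within 0.01 of the median of all assays, and miR-301a and miR-301b at -0.84 and -0.86 from it.

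**Figure D3:**
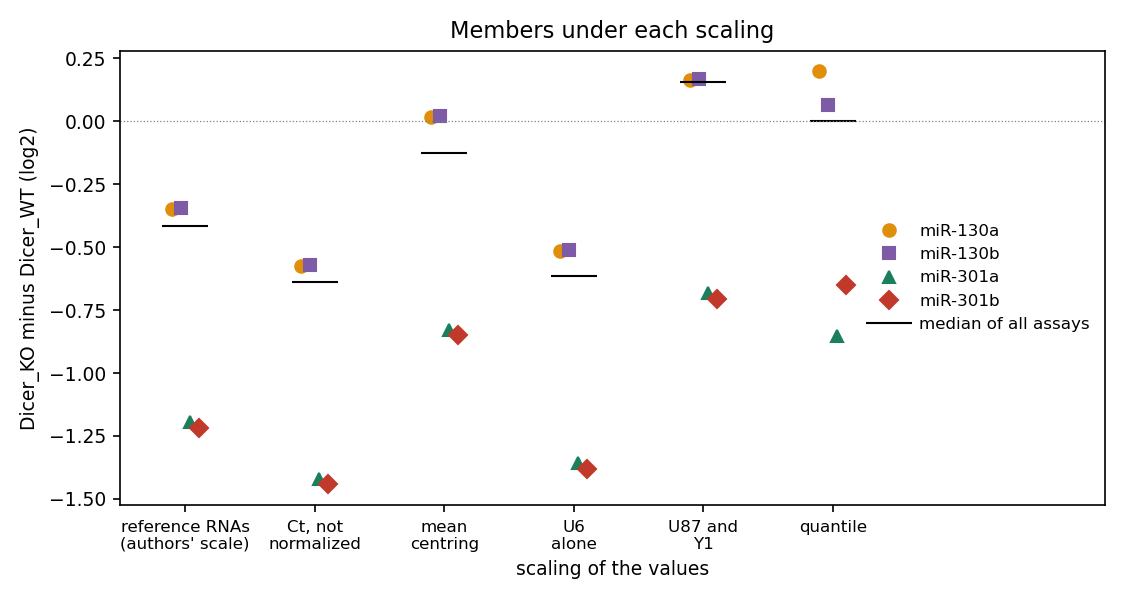
Dicer_KO minus Dicer_WT difference in log2 (vertical axis) of the 4 members under 6 scalings (horizontal axis), with a black line for the median of all assays tested under each. Both miR-301 members lie below that median under every scaling shown, and miR-130a and miR-130b lie near or above it.

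Of the 4 star strands of the family, miR-130b* had an assay. This strand comes from the same hairpin as miR-130b.
miR-130b*: aCUCUUUCccuguugcacuacu
It was read on the second card and had relative quantities of 0.793, 1.51 and 0.897 in Dicer_KO aortas, against 1.08, 1.33 and 0.699 in Dicer_WT aortas. The log2 difference was 0.03 ± 0.358 (SE, n = 3 each), the groups overlapped widely, and its Ct lay between 28.8 and 29.8. Its size and direction depended on the scaling, with -0.15 for Ct without normalization, -0.22 relative to U6 alone, 0.67 relative to U87 and Y1 and 0.66 after quantile normalization. The guide and the star strand lie on different cards with different sets of reference RNAs, and their difference was not tested.

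Among 1679 mature mouse microRNAs in the RefSeq table, 7 carried AGUGCAA at bases 2 to 8, and of these miR-721 was the single further one with an assay.
miR-721: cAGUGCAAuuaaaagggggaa
Its product appeared late, at Ct 31.0, 31.9 and 31.8 in Dicer_KO aortas, against 31.96, 32.4 and 31.3 in Dicer_WT aortas. The log2 difference was 0.55 ± 0.393 (SE, n = 3 each, limma adjusted p = 0.343), and the Dicer_WT aortas spanned a wider range than the gap between the groups. It was 1.19 relative to U87 and Y1 and 2.19 after quantile normalization, so its size depended on the scaling.

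Further microRNAs hold 6 of the 7 seed bases shifted by 1 position: miR-148a, miR-148b and miR-152 hold AGUGCA at bases 3 to 8, and miR-19a and miR-19b hold GUGCAA at bases 2 to 7. One of each kind is shown with its own seed in capitals.
miR-148b: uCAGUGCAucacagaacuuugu
miR-19b: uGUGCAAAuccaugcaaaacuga
Of these 5 assays 0 were called in either direction in the fit over all assays (1.86% called), all 5 differences lay below 0 on the authors' scale (78.2% of all assays), and the median was -0.52 against -0.42 over all assays. miR-148b had relative quantities of 0.598, 0.467 and 0.375 in Dicer_KO aortas, against 1.25, 1.09 and 0.739 in Dicer_WT aortas. Its log2 difference was -1.08 ± 0.288 (SE, n = 3 each, limma adjusted p = 0.0931).

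miR-152 was at -0.85 ± 0.262 and miR-148a, which represses the LDL receptor, at -0.52 ± 0.204 (SE, n = 3 each, limma adjusted p = 0.120 and 0.173). Like miR-148b, both had every Dicer_KO aorta below every Dicer_WT aorta, which makes 3 of the 5 assays against 32.6% of all assays. All 3 stayed below 0 under mean centring, U87 and Y1, and quantile normalization, though miR-148a then reached -0.01 under the last 2. The miR-17-92 members miR-19a and miR-19b were at -0.17 ± 0.198 and -0.10 ± 0.209 (SE, n = 3 each, limma adjusted p = 0.529 and 0.720) and turned above 0 under those 3 scalings.

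**Figure D4:**
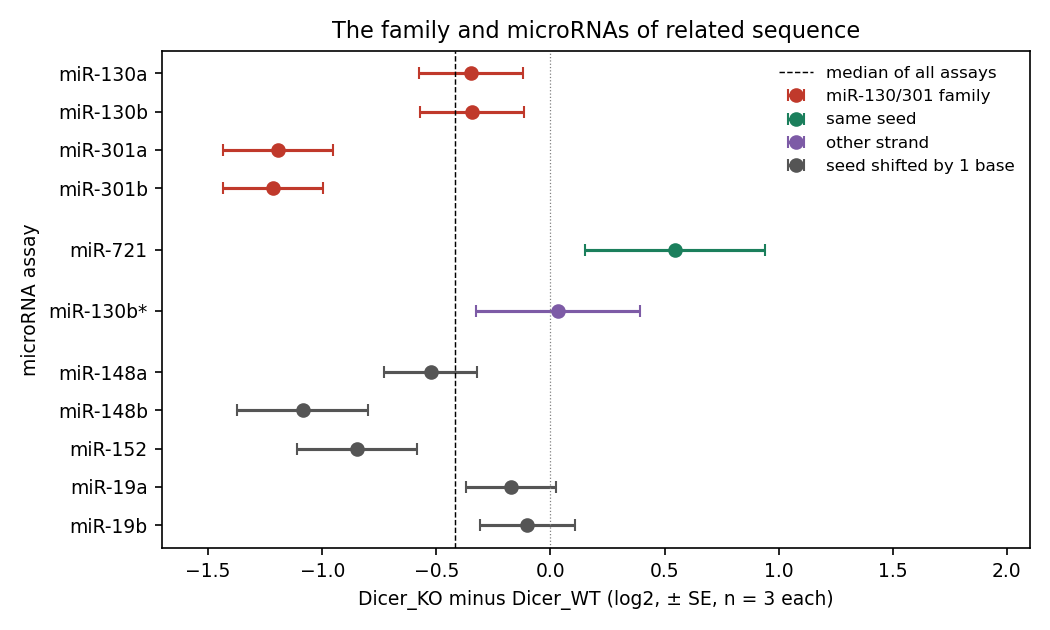
Dicer_KO minus Dicer_WT difference in log2 (horizontal axis, ± SE, n = 3 each) of the 4 members (red), miR-721 with the same seed (green), the star strand miR-130b* (purple) and 5 microRNAs with a seed shifted by 1 base (grey), with the median of all assays as a dashed line. miR-301a and miR-301b lie farthest left, at -1.19 and -1.22, and miR-721 lies right of 0.

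Similarity of pattern was measured as Pearson's r of log2 relative quantity over the 6 aortas, among the assays detected in all 6. The members other than the one compared were set aside, which left 326 assays, all of which share the aortas and the reference RNAs of their card. The group means were not removed, so r includes the difference between genotypes, which was known when the family was picked. The assays nearest to miR-301b were miR-326 (r = 0.997), miR-543 (0.996) and miR-103 (0.994), and those nearest to miR-301a were miR-103 (0.995), miR-425* (0.994) and miR-326 (0.990). Their log2 differences were -1.02 for miR-326, -1.11 for miR-543, -0.78 for miR-103 and -0.67 for miR-425*. The r between miR-301a and miR-301b was 0.993, and each had a median r of 0.75 and 0.73 with the other assays.

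For miR-130a the nearest were miR-801 (r = 0.998), miR-28 (0.991) and miR-22 (0.985), and for miR-130b they were miR-34b-3p (0.994), miR-210 (0.991) and miR-598 (0.985). The nearest assays of miR-130a and miR-130b were thus different ones, and these members correlated with each other at 0.930. Between miR-130 and miR-301 members r was 0.834 to 0.861, beside median r values of 0.71 and 0.75 for miR-130a and miR-130b with all other assays.

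MicroRNAs abundant in the cell types of an aorta were read in the same samples, and all 19 marker assays were detected in all 6 aortas. The smooth muscle markers miR-143 and miR-145 had Ct 11.5 to 16.2. The labels name macrophage as the cell type beside aorta as the tissue, and the values are those of whole vessels. Of 6 myeloid markers, 4 had every Dicer_KO aorta below every Dicer_WT aorta (32.6% of all assays) and 0 were called (1.86% of all assays called lower). The mean log2 relative quantity of this list was -1.17 to -0.54 in Dicer_KO aortas and -0.30 to 0.38 in Dicer_WT aortas. Within it miR-223 and miR-511 were at -1.66 and -1.99, and miR-142-3p and miR-142-5p at -0.07 and -0.09, and both miR-142 arms were above 0 with mean centring, relative to U87 and Y1 and after quantile normalization.

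The mean of the 2 smooth muscle markers was -0.82 to -0.19 in Dicer_KO aortas and -0.15 to 0.13 in Dicer_WT aortas, with 0 of 2 called. Both had every Dicer_KO aorta below every Dicer_WT aorta (32.6% of all assays). Their size and direction depended on the scaling, and on the authors' scale miR-145, at -0.42, lay at the median of all assays. With mean centring, relative to U87 and Y1 and after quantile normalization, miR-143 was at -0.39, -0.25 and -0.14. Under the same scalings miR-145 was at -0.05, 0.10 and 0. The erythroid miR-451 had every Dicer_KO aorta above every Dicer_WT aorta (2.39% of all assays). The erythroid miR-451 and miR-486 averaged 0.998 to 1.65 in Dicer_KO aortas and -0.998 to 0.85 in Dicer_WT aortas, and the 3 liver markers 0.47 to 1.23 in Dicer_KO aortas and -0.80 to 0.73 in Dicer_WT aortas, with 0 called in either list. The 2 endothelial markers averaged -0.23 to 0.59 in Dicer_KO aortas and -0.24 to 0.16 in Dicer_WT aortas, and the 4 striated muscle markers -0.72 to 0.39 in Dicer_KO aortas and -0.11 to 0.07 in Dicer_WT aortas, with 0 called. The part of these cell types in the values of miR-301a and miR-301b was not tested.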

How the data were processed

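Ct values were deposited by the authors for 517 microRNA assays and control RNAs on 2 cards in 6 aortas, with 40 for no product. A decimal comma in 5 of its cells was read as a point. A table of relative quantities on a linear ratio scale was also deposited by the authors. From the values, these are 2 to the power of the difference between mean reference Ct and assay Ct in each aorta and card, scaled to a geometric mean of 1 in Dicer_WT aortas (largest log2 difference 5.22e-06). The references were U6, snoRNA135 and snoRNA202, joined by snoRNA429 on the second card. The authors' deposited fold changes are linear ratios. RNA was reverse-transcribed, preamplified and read with FAM-labelled probes, per the labels' protocols. For the software behind Ct, the array version and any batch, the sources used here give nothing. Per the labels the replicates are biological.

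Genotypes were compared on log2 relative quantities by limma (version 3.58.1, R 4.3.3) with moderated two-sided tests adjusted by Benjamini-Hochberg over 377 assays at 0.05, checked on simulated tables. In the simulated tables assays varied independently, so the check does not cover assays that vary together across aortas. Undetected wells (Ct 35 or later) were set to Ct 35, and an assay was tested where 2 or more aortas of either group gave product below it. The members, lists and tests were chosen with earlier results of these data known. Named beside the members were the 3 assays closest to each by Pearson's r, the related microRNAs and the cell type markers. Sequences are from RefSeq (GRCm38.p6). The number of arrays limits the precision.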

Additional observations from a re-analysis of the deposited data

How the results depend on the processing

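Over 19 alternatives, 102 of 114 values of the members and of both pair differences moved by less than 1 SD between replicates, and the other 12 were member differences under 3 scalings. Many of the 102 could not move. No member had a Ct above 25.97, so the settings on detection left all these values as they were. The variance trend and the replicate block left them unchanged too. Reference RNAs cancel in the pair differences, so among the scalings only quantile normalization could change those. The tally is therefore no measure of how steady the values are. With mean centring the log2 differences were 0.018 for miR-130a, 0.021 for miR-130b, -0.83 for miR-301a and -0.85 for miR-301b. Relative to U87 and Y1 they were 0.16, 0.17, -0.68 and -0.71, and after quantile normalization 0.20, 0.067, -0.85 and -0.65, in the same order. Leaving out 1 aorta gave -0.51 to -0.24 for miR-130a, -0.50 to -0.17 for miR-130b, -1.36 to -1.04 for miR-301a and -1.38 to -1.08 for miR-301b.

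The number of members called was 2 with a Ct cutoff of 32, with undetected wells missing and among assays detected in all 6 aortas, and 1 with undetected wells as deposited. It was 0 to 2 when 1 aorta was left out, with 2 only without Dicer_KO replicate 1. Called lower were 24 of 359 assays at Ct 32, 16 of 365 with missing wells and 20 of 330 detected in all 6. Of 377 assays, 13 were called lower with undetected wells as deposited, 4 after quantile normalization and 5 to 55 with 1 aorta left out. The fit without changes called 7 of 377 lower. Assays called higher numbered 2 at Ct 32, 2 among assays detected in all 6, 2 relative to U87 and Y1, 1 with mean centring, missing wells or quantile normalization, and 0 to 9 with 1 aorta left out, against 0. At Ct 32, with missing wells, among assays detected in all 6 and as deposited, the log2 differences of miR-301a and miR-301b stayed at -1.19 and -1.22. The causes of the changed counts were not tested.

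With the replicate number as a block, 7 assays were called lower, 0 higher and 0 members. Same-numbered aortas did not deviate together (correlations of -0.084, -0.097 and 0.043), so the numbers were not taken as pairs. Each aorta was read once per assay, so the error of a single well is not known.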
